A study of Rattus norvegicus with 10 samples.

Results

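The genes described here encode the subunits of the proteasome and the proteins that regulate or assemble it. They were taken from the deposited gene table as the rows whose symbol begins with Psm, continues with a letter from a to g and a number, and reached 0.5 FPKM in at least 5 of the 10 libraries. FPKM scales fragments to the length of the transcript and to the size of the library, so it can be compared between genes of different length. Such a symbol was carried by 50 of 32623 rows, and 49 of these passed the filter, beside 15169 genes that passed it in the whole table. Psma8, a core subunit made in the testis, did not pass: it held 0 counts in the EA group and 4 counts in the control group, with a highest level of 0.0293 FPKM.

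The samples were poly(A) RNA from the cerebral cortex of adult male Sprague-Dawley rats, 5 given electroacupuncture (EA) and 5 controls, sequenced as stranded paired reads. EA was given through needles at the acupoints GV20 and GV26, with a current of 3 mA alternating between 2 and 100 Hz over 40 min, while controls were restrained for an equal time. All rats were anesthetized and perfused with saline before the cortex was taken. The study asked which cortical genes respond when EA opens the blood-brain barrier, and the question here is whether core, regulatory cap and immunoproteasome subunits differed between EA and control cortex. Libraries held 47843590 to 60941939 estimated counts in the EA group and 55223193 to 61707722 in the control group. Because the tissue was analysed whole, fewer cells of a type and less RNA per cell cannot be told apart.

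The proteasome degrades proteins that carry a ubiquitin chain. Its barrel, the 20S core, is a stack of rings in which outer alpha subunits gate the entrance and inner beta subunits hold the protease sites, while the 19S cap recognises ubiquitin, removes it, and uses a ring of ATPases to unfold the substrate and thread it into the core. Interferon induces replacement beta subunits, the immunosubunits, and the PA28 activator, which change the peptides offered to class I molecules, and in neurons the proteasome is known for its part in synaptic protein turnover.

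None of the 49 proteasome genes passed the test between EA and control cortex. With edgeR's quasi-likelihood test, adjusted over 15169 genes by the Benjamini-Hochberg method, 0 of 49 met an adjusted p under 0.05 with a fold change above 1.2, where 0.0198% of all genes were called higher in EA and 0.0% lower. The lowest adjusted p of a proteasome gene was 0.222, for the cap ATPase Psmc6. DESeq2 called 0 of the 49, against 1.11% of all genes (0.508% higher and 0.6% lower). limma called 0 on log2(FPKM + 0.1), against 0.00659% of all genes, and 0 on log2(FPKM + 1), against 0.0264%. At an unadjusted p under 0.05 edgeR placed 6 proteasome genes higher in EA and 2 lower, which is 16.3% of the 49, against 13.7% of all genes (6.59% higher and 7.15% lower). Taken in either direction, the share among proteasome genes was thus near that of all genes. More of them were higher than lower, unlike all genes, but limma at either pseudocount gave 2 higher and 4 lower.

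The absence of calls went with narrow intervals. The 95% interval of the log2 fold change lay wholly inside a 1.2-fold change (0.26 on the log2 scale) for 35 of 49 proteasome genes, or 71.4%, against 35.6% of all genes tested. The median standard error (SE) of their log2 fold changes was 0.06, against 0.10 for all genes, and their median variation between rats of a group, the biological coefficient of variation, was 8.52% against 13.1%. Proteasome genes were also counted more deeply, with a median of 56.1 CPM, which are counts scaled to library size, against 18.0 for all genes. The 14 genes whose interval reached past 1.2-fold were 3 of the 20S core, 2 of the 19S cap, the 3 immunosubunits, Psmb11, 4 assembly chaperones and 1 partner protein. For these genes the interval did not exclude a change of that size.

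**Figure D1:**
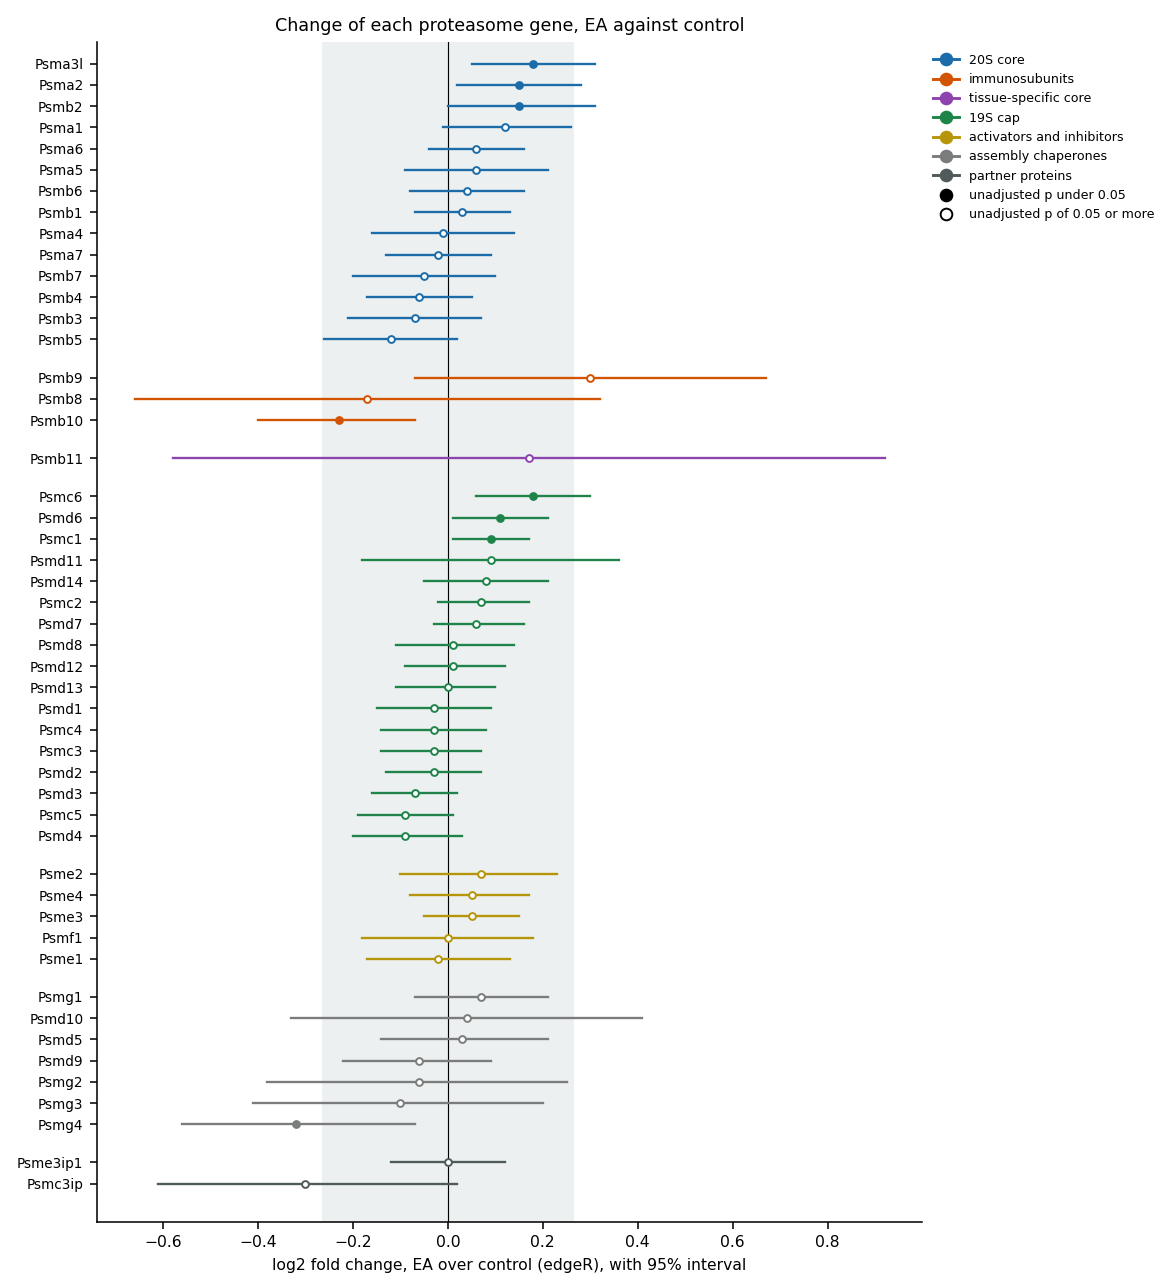
Log2 fold change of each of the 49 proteasome genes, EA over control (x axis, edgeR), with its 95% interval, 1 gene per line and coloured by class, where filled points have an unadjusted p under 0.05 and the grey band marks a change below 1.2-fold. The 14 core and 17 cap genes lie between -0.12 and 0.18, with short intervals except for the cap gene Psmd11 (-0.18 to 0.36). Psmb11 and the immunosubunit Psmb8 have the longest.

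Core and cap genes were abundant and kept nearly the same share of cortical RNA in both groups. The 49 genes together made up 0.294% to 0.337% of all FPKM in EA libraries and 0.309% to 0.356% in control libraries. Summed over the 14 core genes the level was 689 to 795 FPKM in EA libraries and 721 to 817 FPKM in control libraries, and over the 17 cap genes it was 855 to 933 FPKM in EA and 880 to 935 FPKM in control. The 3 immunosubunits summed to only 15.3 to 17.8 FPKM in EA libraries and 16.7 to 20.5 FPKM in control libraries. In each of these sums the groups overlapped.

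**Figure D2:**
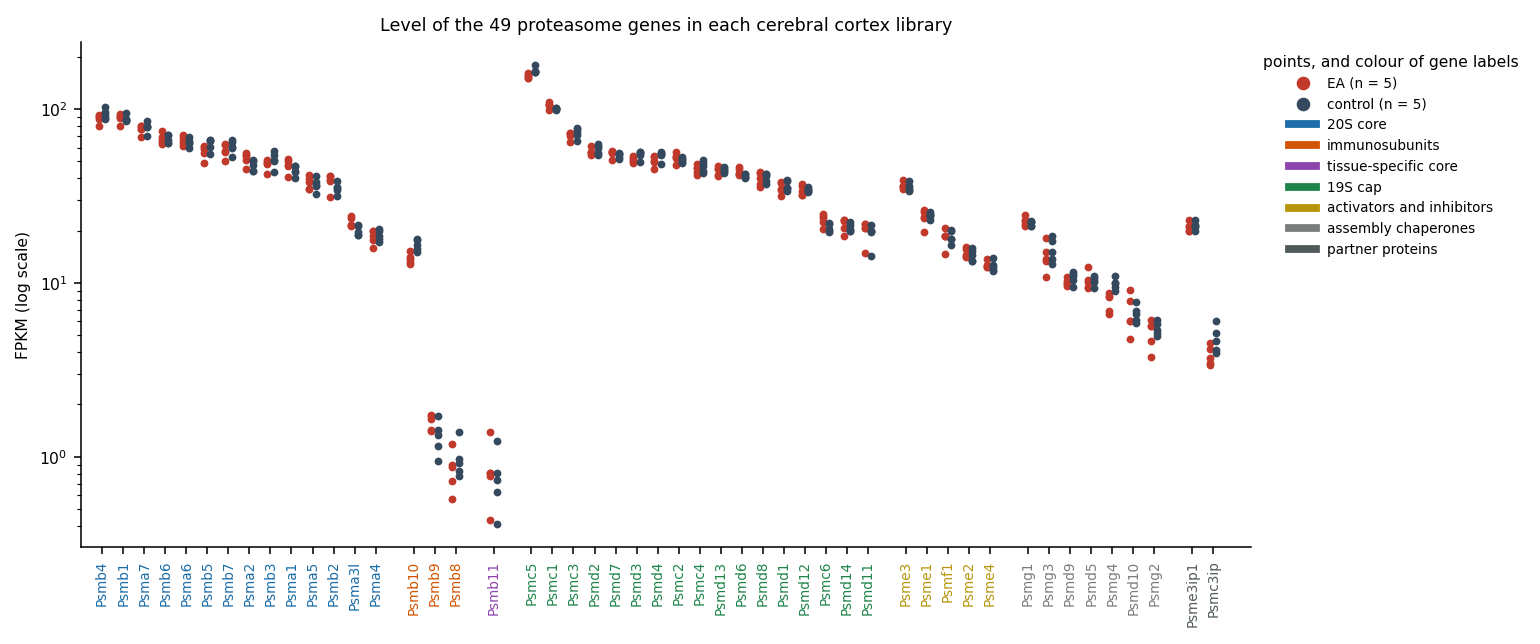
FPKM of the 49 proteasome genes (y axis, log scale) in the 5 EA libraries (red, left of each pair) and the 5 control libraries (dark, right), ordered by mean level within each class, with gene labels coloured by class. Psmc5 stands highest at a mean of 161 FPKM, and Psmb9, Psmb8 and Psmb11 lie near 1 FPKM.

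By class, the median log2 fold change was 0.03 for the 20S core (14 genes), 0.01 for the 19S cap (17 genes), -0.17 for the immunosubunits (3 genes), 0.05 for activators and inhibitors (5 genes) and -0.06 for assembly chaperones (7 genes). Over 3 genes the immunosubunit median was simply the value of Psmb8, the least abundant of them with a mean of 0.913 FPKM. The immunosubunit median also rested on single libraries: it was -0.01 without control 5, -0.07 without EA 3, and -0.23 without EA 5, control 1 or control 4. Over all 49 genes it was 0.01, with 26 above 0 and 23 below, and over all genes tested it was 0.0, with 49.5% above 0. A class level was also computed for each library as the median over its genes of log2 CPM minus the gene's control mean. For the core it ran from -0.07 to 0.10 in EA libraries and from -0.04 to 0.06 in control libraries, and for the cap from -0.03 to 0.08 in EA and from -0.02 to 0.04 in control. The 3 immunosubunits spread furthest, from -0.19 to 0.32 in EA libraries and from -0.26 to 0.11 in control libraries. Activators and inhibitors ran from 0.0 to 0.07 in EA and from -0.02 to 0.0 in control. These ranges met at 0.0, and at this rounding an overlap cannot be told.

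**Figure D3:**
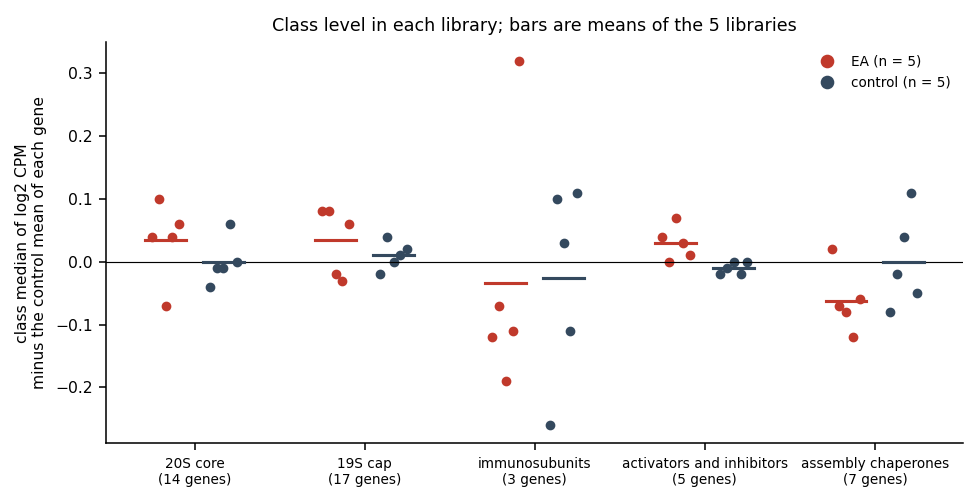
Class level of proteasome genes in each library (y axis, median over the class of log2 CPM minus the control mean of the gene), with EA libraries in red left of control libraries in dark and a bar at the mean of 5. Core and cap libraries of the 2 groups overlap within 0.10 of 0, and the immunosubunit points reach from -0.26 to 0.32.

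The alpha ring genes were led in level by Psma7, with a mean of 77.5 FPKM, and Psma4 was lowest with 18.6 FPKM. Psma7 had 76.4, 74.6, 69.5, 76.2 and 72.6 CPM in EA 1 to EA 5, against 68.7, 74.4, 75.4, 74.0 and 81.3 CPM in control 1 to control 5, CPM here and in what follows being scaled between libraries by TMM, the trimmed mean of M values. Psma4 had 72.0, 76.4, 67.6, 80.7 and 79.9 CPM in EA rats, against 82.4, 70.8, 75.7, 67.5 and 82.3 CPM in control rats. In both genes the groups overlapped along most of their range, and the log2 fold changes were -0.02 (SE 0.05, edgeR adjusted p = 0.917) for Psma7 and -0.01 (SE 0.07, adjusted p = 0.979) for Psma4.

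Of the 7 alpha genes 2 had an unadjusted p under 0.05, both higher in EA, where 6.59% of all genes were higher. Psma3l, a Psma3-like gene counted here as an alpha subunit, had 79.8, 88.4, 81.7, 89.0 and 78.7 CPM in EA rats, against 81.2, 68.7, 69.5, 76.3 and 72.8 CPM in control rats. Psma2, another alpha subunit, had 50.7, 49.6, 42.9, 45.9 and 48.1 CPM in EA rats, against 41.0, 42.2, 39.6, 44.6 and 46.2 CPM in control rats. All 5 EA rats lay above the control mean in both genes, but control 1 for Psma3l and controls 4 and 5 for Psma2 reached into the EA range. The log2 fold change was 0.18 (SE 0.06, adjusted p = 0.233) for Psma3l and 0.15 (SE 0.06, adjusted p = 0.297) for Psma2. With limma on log2(FPKM + 0.1) the unadjusted p was 0.032 for Psma3l and 0.112 for Psma2. Psma1 had a log2 fold change of 0.12, and Psma5 and Psma6 of 0.06 each. A related row, LOC100361067, is annotated as Psma3-like too and averaged 1.03 FPKM, so reads of these copies may have been divided between them.

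Among the beta ring genes without protease activity, Psmb4 was highest, with a mean of 90.9 FPKM, and Psmb2 lowest, with 36.7 FPKM. Psmb4 had 78.8, 82.1, 72.9, 76.7 and 79.4 CPM in EA rats, against 78.3, 82.7, 76.9, 87.8 and 80.3 CPM in control rats, a log2 fold change of -0.06 (SE 0.05, adjusted p = 0.646). Psmb2 had 35.7, 36.8, 30.1, 37.7 and 37.4 CPM in EA rats, against 32.3, 34.5, 32.1, 31.7 and 29.1 CPM in control rats. In Psmb2, 4 of 5 EA rats lay above every control rat, and EA 3 lay below all control rats except control 5. Its log2 fold change was 0.15 (SE 0.07, adjusted p = 0.36) over 5 rats a group. Psmb1 and Psmb3 had log2 fold changes of 0.03 and -0.07.

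The catalytic beta subunits Psmb5, Psmb6 and Psmb7 carry the chymotrypsin-like, caspase-like and trypsin-like sites. Psmb5 had 53.5, 56.1, 46.1, 54.4 and 50.4 CPM in EA rats, against 50.7, 58.3, 59.8, 58.9 and 55.1 CPM in control rats. Psmb6 had 46.8, 48.8, 53.8, 55.6 and 49.3 CPM in EA rats, against 48.3, 51.6, 49.5, 51.2 and 47.4 CPM in control rats. Psmb7 had 110, 112, 92.3, 99.3 and 100 CPM in EA rats, against 94.6, 104, 106, 114 and 114 CPM in control rats. All 5 EA rats lay below the control mean for Psmb5, while the groups overlapped widely for Psmb6 and Psmb7. The log2 fold changes were -0.12 (SE 0.06, adjusted p = 0.441) for Psmb5, 0.04 (SE 0.06, adjusted p = 0.82) for Psmb6 and -0.05 (SE 0.07, adjusted p = 0.791) for Psmb7. Psmb7 shares 17494 bases with Nek6 on the opposite strand, and a Psmb6-like copy, LOC100360846, averaged 1.62 FPKM.

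The immunosubunits Psmb8, Psmb9 and Psmb10 replace Psmb5, Psmb6 and Psmb7 in that order, and in this cortex Psmb10 was far the most abundant of them, with means of 0.913 FPKM for Psmb8, 1.45 FPKM for Psmb9 and 15.2 FPKM for Psmb10. Psmb8 and Psmb9 lie together with the peptide transporter genes Tap1 and Tap2 in the major histocompatibility complex on chromosome 20 (Rnor_6.0). Psmb9 spans 3973420 to 3978845 on the minus strand, Tap1 begins 189 bases beyond it on the plus strand, and Psmb8, at 3990613 to 3993769, begins 943 bases beyond Tap1. Psmb10 lies on chromosome 19 at 37909546 to 37912027 on the minus strand.

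Promoter sequences of the 3 immunosubunits are shown because these genes are known interferon targets. Each runs from 250 bases before to 50 bases after the gene start (300 bases, RefSeq, build GRCr8), read 5′ to 3′ along the gene. The windows are chr20:4656982-4657281 on the minus strand for Psmb8, chr20:4668750-4669049 on the plus strand for Psmb9 and chr19:50743243-50743542 on the minus strand for Psmb10. Capitals mark the core of the interferon-stimulated response element (GAAA, any 2 bases, GAAA) on either strand in Psmb8 and Psmb10, and GGGCGG, the GC box, in Psmb9, where the element was not found.
Psmb8: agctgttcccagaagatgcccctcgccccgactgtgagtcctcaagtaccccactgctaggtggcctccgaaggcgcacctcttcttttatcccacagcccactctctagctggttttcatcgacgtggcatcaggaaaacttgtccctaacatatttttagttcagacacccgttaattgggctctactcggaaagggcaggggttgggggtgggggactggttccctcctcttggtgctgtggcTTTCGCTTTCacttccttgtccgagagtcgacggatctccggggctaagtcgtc
Psmb9: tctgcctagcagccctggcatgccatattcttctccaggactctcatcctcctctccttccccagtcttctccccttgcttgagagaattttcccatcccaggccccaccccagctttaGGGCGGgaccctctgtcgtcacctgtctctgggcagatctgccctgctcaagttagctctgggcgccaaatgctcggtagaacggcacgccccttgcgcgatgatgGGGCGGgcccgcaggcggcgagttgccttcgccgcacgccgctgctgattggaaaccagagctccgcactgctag
Psmb10: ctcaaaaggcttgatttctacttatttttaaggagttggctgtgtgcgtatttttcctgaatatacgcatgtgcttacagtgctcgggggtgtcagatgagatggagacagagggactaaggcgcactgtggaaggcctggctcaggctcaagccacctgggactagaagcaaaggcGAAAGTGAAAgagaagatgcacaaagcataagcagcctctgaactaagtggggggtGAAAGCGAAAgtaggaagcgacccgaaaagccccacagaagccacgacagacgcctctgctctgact
The element core begins 4 bases before the start of Psmb8, where it reads on the opposite strand, and 73 and 17 bases before the start of Psmb10. The GC boxes of Psmb9 begin 131 and 25 bases before its start.

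In EA cortex Psmb10 was lower and Psmb9 higher than in control cortex, neither past the adjusted threshold. Psmb10 had 13.7, 13.4, 14.9, 15.8 and 14.4 CPM in EA rats, against 15.8, 18.1, 17.0, 15.8 and 18.3 CPM in control rats. The groups did not overlap, but EA 4 and control 4 differed by less than the rounding, and in FPKM they did overlap, with 15.3 in EA 4 against 15.0 in control 1. The log2 fold change of Psmb10 was -0.23 (SE 0.08, 95% interval -0.40 to -0.07, adjusted p = 0.231), or 0.85-fold. Psmb9 had 2.25, 2.67, 2.38, 2.76 and 2.70 CPM in EA rats, against 1.53, 2.65, 2.12, 2.22 and 1.83 CPM in control rats. All 5 EA rats lay above the control mean of Psmb9, control 2 lay inside the EA range, and the log2 fold change was 0.30 (SE 0.17, 95% interval -0.07 to 0.67, adjusted p = 0.463). Psmb8 had 1.89, 1.96, 1.31, 1.57 and 2.56 CPM in EA rats, against 1.71, 1.94, 2.09, 1.75 and 3.00 CPM in control rats. Rat 5 was highest in each group for Psmb8, the groups overlapped, and the log2 fold change was -0.17 (SE 0.22, 95% interval -0.66 to 0.32, adjusted p = 0.784).

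Groups without overlap were seen in 3 of 49 proteasome genes, Psmc1 with all EA rats above and Psmb10 and Psmg4 with all EA rats below. Over all genes tested 3.04% had groups that did not overlap, 1.42% with EA above and 1.62% with EA below.

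Within a library each immunosubunit can be set against the subunit it replaces, which needs no scaling between libraries. Psmb8 stood at 1.48%, 1.47%, 1.17%, 1.2% and 2.13% of the FPKM of Psmb5 in EA rats, against 1.42%, 1.40%, 1.47%, 1.24% and 2.28% in control rats. Psmb9 stood at 2.26%, 2.57%, 2.07%, 2.33% and 2.56% of Psmb6 in EA rats, against 1.48%, 2.41%, 2.01%, 2.02% and 1.81% in control rats. Psmb10 stood at 21.3%, 20.4%, 27.5%, 27.0% and 24.5% of Psmb7 in EA rats, against 28.4%, 29.8%, 27.4%, 23.5% and 27.2% in control rats. The Psmb9 share was above every control value except that of control 2 in all EA rats, and the other shares overlapped more. In exact two-sided permutation tests over 5 against 5 rats, whose smallest possible p is 0.00794, the log2 difference was -0.07 (SE 0.22, p = 0.675) for Psmb8 to Psmb5, 0.29 (SE 0.13, p = 0.0635) for Psmb9 to Psmb6 and -0.18 (SE 0.11, p = 0.127) for Psmb10 to Psmb7. Adjusted over the 3 ratios by the Benjamini-Hochberg method, the exact p was 0.675, 0.19 and 0.19. The Psmb9 difference varied with the libraries used. It was 0.37 without control 2 (exact adjusted p = 0.0476), 0.19 without control 1 (exact adjusted p = 0.286) and 0.20 without EA 2 and EA 5 (exact adjusted p = 0.357). For Psmb8 it was 0.08 without control 5, 0.01 without EA 3, -0.21 without EA 5 and -0.26 without EA 2 and EA 5.

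**Figure D4:**
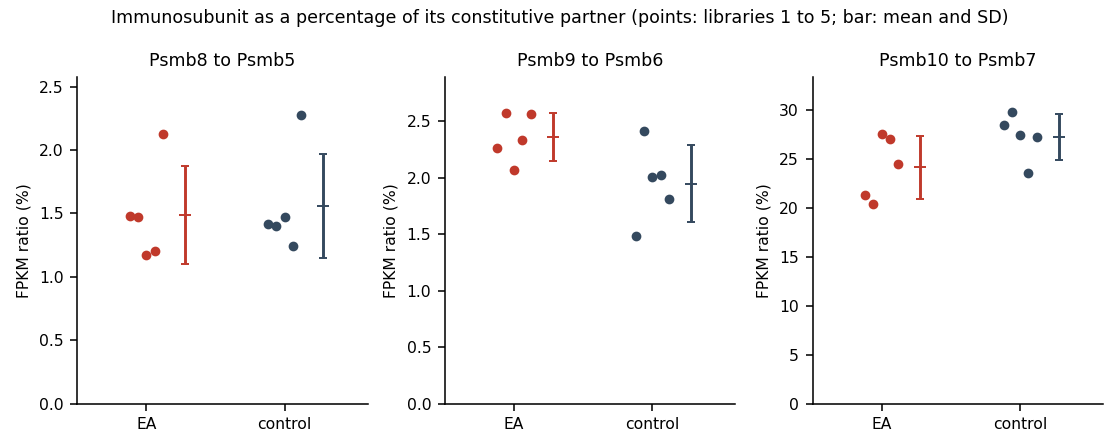
FPKM of each immunosubunit as a percentage of the catalytic subunit it replaces (y axis, from 0), in the 5 EA libraries (left) and the 5 control libraries (right), with the mean and SD beside the points. Means were 1.49% in EA and 1.56% in control for Psmb8 to Psmb5, 2.36% and 1.95% for Psmb9 to Psmb6, and 24.1% and 27.3% for Psmb10 to Psmb7, with overlapping points in each panel.

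Psmb11, the catalytic subunit of the thymus, was the least abundant of the 49 with a mean of 0.802 FPKM. It had 0.418, 0.780, 0.809, 1.3 and 0.731 CPM in EA rats, against 0.603, 0.743, 1.16, 0.388 and 0.698 CPM in control rats. Both groups spanned about the same range, and the log2 fold change of 0.17 (SE 0.34, adjusted p = 0.871) had an interval of -0.58 to 0.92. Psmb11 lies 7355 bases from Psmb5 on chromosome 15 (Rnor_6.0).

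The 6 ATPases of the 19S cap form the ring that unfolds substrates. Of these, 2 (Psmc6 and Psmc1) were higher in EA at an unadjusted p under 0.05, where 6.59% of all genes were higher. Psmc6 had 59.8, 59.4, 53.0, 55.1 and 60.8 CPM in EA rats, against 54.6, 49.1, 48.5, 53.2 and 49.4 CPM in control rats. Psmc1, whose tail docks into the alpha ring, had 179, 180, 173, 183 and 174 CPM in EA rats, against 169, 165, 169, 162 and 170 CPM in control rats. For Psmc6 the lowest EA rat lay below 2 control rats, whereas for Psmc1 every EA rat lay above every control rat. The log2 fold changes were 0.18 (SE 0.05, adjusted p = 0.222) for Psmc6 and 0.09 (SE 0.04, adjusted p = 0.293) for Psmc1. With limma on log2(FPKM + 0.1) the unadjusted p was 0.0394 for Psmc6 and 0.152 for Psmc1. In FPKM the Psmc1 groups overlapped, since EA 3 had 98.7 FPKM and the lowest control rat 99.0 FPKM.

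Promoters of Psmc1 and Psmc6 are shown because these 2 cap genes had the lowest unadjusted p of their class and both carry CCGGAAG, the core that ETS factors bind, in capitals on either strand. The windows are chr6:125122247-125122546 for Psmc1 and chr15:21022064-21022363 for Psmc6, both on the plus strand of GRCr8 (RefSeq).
Psmc1: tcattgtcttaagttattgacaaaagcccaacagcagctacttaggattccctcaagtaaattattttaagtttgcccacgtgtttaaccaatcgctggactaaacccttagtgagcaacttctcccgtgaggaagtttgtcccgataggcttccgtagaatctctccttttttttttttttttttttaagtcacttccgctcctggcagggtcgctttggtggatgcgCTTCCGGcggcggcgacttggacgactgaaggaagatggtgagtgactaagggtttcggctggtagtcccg
Psmc6: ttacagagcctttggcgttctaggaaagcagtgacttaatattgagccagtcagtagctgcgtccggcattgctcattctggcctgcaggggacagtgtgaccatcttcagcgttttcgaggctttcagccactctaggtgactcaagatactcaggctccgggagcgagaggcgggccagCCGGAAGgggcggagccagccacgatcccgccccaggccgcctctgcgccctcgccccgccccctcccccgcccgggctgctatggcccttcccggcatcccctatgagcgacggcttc
The ETS core begins 21 bases before the start of Psmc1, on the opposite strand, and 69 bases before that of Psmc6.

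The other ATPase genes had smaller or negative log2 fold changes. Psmc5, the most abundant of all 49 genes at 161 FPKM, had 203, 211, 225, 200 and 205 CPM in EA rats, against 224, 215, 221, 212 and 239 CPM in control rats. All EA rats but EA 3 lay below all control rats, and the log2 fold change was -0.09 (SE 0.05, adjusted p = 0.42). Psmc2, Psmc3 and Psmc4 had log2 fold changes of 0.07, -0.03 and -0.03. The class of 6 ATPases thus had 3 genes above 0 and 3 below, with a median of 0.02.

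Of the 11 cap genes that are not ATPases, 6 had log2 fold changes above 0 and 5 below, from -0.09 to 0.11. Psmd6, a subunit of the lid, had 61.1, 65.9, 61.9, 59.6 and 63.7 CPM in EA rats, against 60.5, 55.8, 56.9, 55.7 and 59.8 CPM in control rats. All 5 EA rats lay above the control mean, with controls 1 and 5 inside the EA range, and the log2 fold change was 0.11 (SE 0.05, adjusted p = 0.304). Psmd2, which binds ubiquitin shuttle receptors and was the most abundant of the 11 at 57.6 FPKM, had 173, 189, 174, 169 and 171 CPM in EA rats, against 169, 188, 170, 182 and 184 CPM in control rats. Its groups overlapped along their whole range, with a log2 fold change of -0.03 (SE 0.05, adjusted p = 0.852).

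Psmd11, a lid subunit that holds core and cap together and the least abundant cap gene at 19.5 FPKM, had 71.8, 76.8, 75.5, 51.2 and 75.3 CPM in EA rats, against 69.0, 73.7, 69.4, 67.2 and 49.5 CPM in control rats. EA 4 and control 5 each lay well below the other 4 rats of their group, and the log2 fold change was 0.09 (SE 0.12, adjusted p = 0.79). The ubiquitin receptor Psmd4 had a log2 fold change of -0.09, and Psmd14, which cuts ubiquitin off substrates, of 0.08. Psmd1, Psmd3, Psmd7, Psmd8, Psmd12 and Psmd13 had log2 fold changes of -0.03, -0.07, 0.06, 0.01, 0.01 and 0.0. For 15 of the 17 cap genes the 95% interval excluded a 1.2-fold change.

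**Figure D5:**
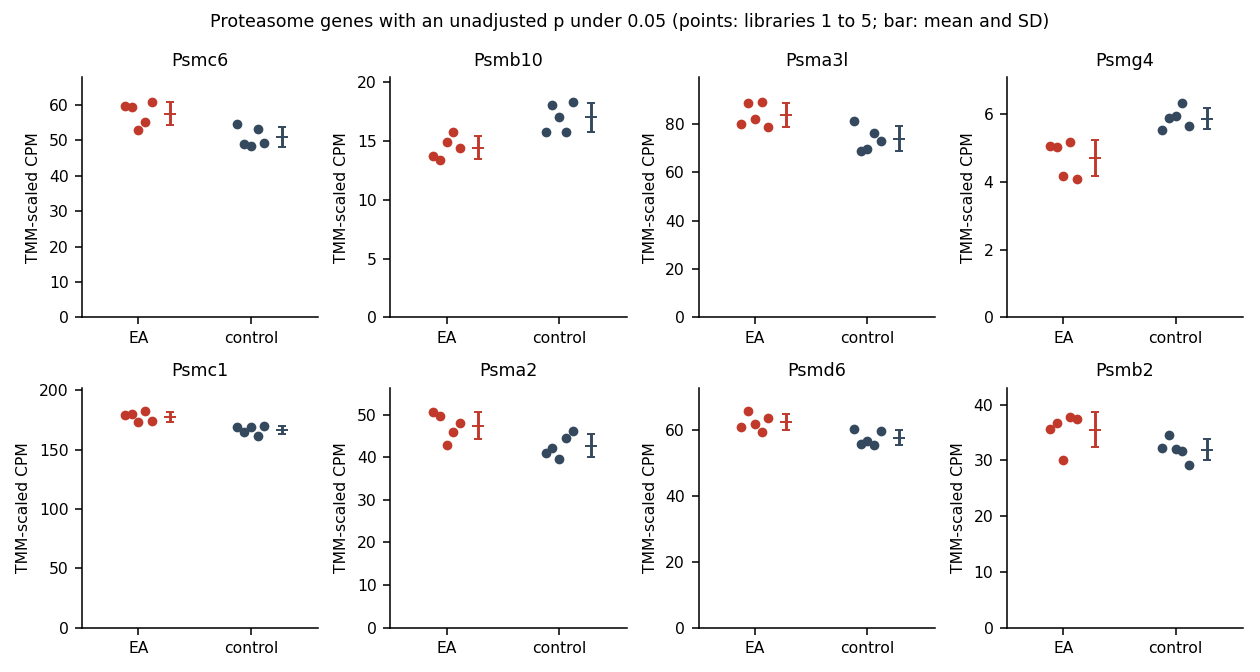
TMM-scaled CPM (y axes, from 0) of the 8 proteasome genes with an unadjusted p under 0.05, in EA libraries (red, left) and control libraries (dark, right), with the mean and SD beside the points. EA means stand above control means in 6 panels, as for Psmc6 at 57.6 against 51.0, and below them for Psmb10 at 14.4 against 17.0 and Psmg4 at 4.71 against 5.87.

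The activators open the core without ATP, and none of these genes stood apart between the groups. Psme1 and Psme2 encode the PA28 alpha and beta subunits and lie 6609 bases apart on chromosome 15 (Rnor_6.0). Psme1 had 25.0, 24.7, 21.5, 27.0 and 26.5 CPM in EA rats, against 24.2, 25.0, 25.9, 24.5 and 26.6 CPM in control rats. Psme2 had 19.5, 19.9, 22.7, 22.3 and 19.9 CPM in EA rats, against 22.4, 20.7, 18.6, 18.1 and 20 CPM in control rats. The groups of both genes overlapped, and the log2 fold changes were -0.02 (SE 0.07, adjusted p = 0.945) for Psme1 and 0.07 (SE 0.08, adjusted p = 0.76) for Psme2. Psme1 shares 2574 bases with Emc9 on the opposite strand, and a Psme1-like row, AABR07028009, averaged 0.579 FPKM.

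Psme3, the nuclear PA28 gamma, was the most abundant activator at 35.8 FPKM and had 98.6, 94.9, 102, 97.5 and 105 CPM in EA rats, against 94.2, 89.8, 97.6, 102 and 95.8 CPM in control rats. Psme4, which encodes the activator PA200, was the least abundant at 12.6 FPKM and had 103, 92.2, 96.6, 93.4 and 90.9 CPM in EA rats, against 105, 86.8, 91.8, 90.6 and 86.9 CPM in control rats. In each gene 4 of 5 EA rats lay above the control mean, and the groups overlapped. The log2 fold change was 0.05 in both, with SE 0.05 and adjusted p = 0.647 for Psme3 and SE 0.06 and adjusted p = 0.776 for Psme4. Psmf1, the inhibitor PI31, had a log2 fold change of 0.0, and all 5 genes of this class had intervals inside 1.2-fold. Psme3 shares 7784 bases with AC123346 on the same strand, a row that averaged 0.534 FPKM.

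Assembly chaperones were less abundant and varied more, with log2 fold changes from -0.32 to 0.07. Psmg4, a chaperone of alpha ring assembly, had the lowest of them and of all 49 genes. It had 5.07, 5.03, 4.18, 5.19 and 4.09 CPM in EA rats, against 5.53, 5.88, 5.94, 6.33 and 5.65 CPM in control rats. Every EA rat lay below every control rat, in FPKM as well, where EA rats reached 8.70 at most and control rats began at 9.04. The log2 fold change was -0.32 (SE 0.11, 95% interval -0.56 to -0.07, adjusted p = 0.261), or 0.803-fold.

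Promoters of Psmg4 and Psme2 are shown because each carries the interferon element core (capitals) seen in Psmb8 and Psmb10. Psma4, Psmb3 and Psmd7 carry it too and are not shown. The windows are chr17:30923324-30923623 for Psmg4 and chr15:33052702-33053001 for Psme2, both on the minus strand of GRCr8 (RefSeq).
Psmg4: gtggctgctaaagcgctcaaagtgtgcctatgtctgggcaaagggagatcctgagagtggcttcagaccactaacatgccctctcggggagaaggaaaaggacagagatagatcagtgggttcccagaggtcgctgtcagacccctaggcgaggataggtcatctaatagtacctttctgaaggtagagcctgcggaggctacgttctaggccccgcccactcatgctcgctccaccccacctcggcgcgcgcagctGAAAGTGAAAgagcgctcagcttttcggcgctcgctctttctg
Psme2: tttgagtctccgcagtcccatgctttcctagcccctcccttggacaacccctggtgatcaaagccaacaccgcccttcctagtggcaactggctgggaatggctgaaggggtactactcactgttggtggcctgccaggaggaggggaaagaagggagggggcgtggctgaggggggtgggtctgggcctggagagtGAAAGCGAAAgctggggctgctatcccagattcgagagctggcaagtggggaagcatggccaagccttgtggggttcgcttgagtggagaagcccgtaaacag
The core begins 8 bases after the start of Psmg4 and 53 bases before that of Psme2.

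Psmg1 and Psmg2 encode the chaperone pair that starts the alpha ring, and were the most and least abundant of the 7 chaperones at 22.4 and 5.32 FPKM. Psmg1 had 23.9, 22.5, 26.9, 23.9 and 22.7 CPM in EA rats, against 22.7, 22.9, 23.5, 21.5 and 23.5 CPM in control rats. Psmg2 had 7.05, 7.08, 7.92, 5.69 and 4.63 CPM in EA rats, against 7.29, 6.30, 6.64, 7.39 and 6.15 CPM in control rats. Both pairs of groups overlapped, the EA rats of Psmg2 being the wider, and the log2 fold changes were 0.07 (SE 0.06, adjusted p = 0.66) for Psmg1 and -0.06 (SE 0.14, adjusted p = 0.89) for Psmg2. Psmg3 had -0.10, and the ATPase ring chaperones Psmd5, Psmd9 and Psmd10 had 0.03, -0.06 and 0.04 on the same log2 scale.

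Rows of 2 partner proteins also matched the symbol rule. Psmc3ip, which encodes a factor of meiotic recombination and is no proteasome subunit, averaged 4.32 FPKM and had 3.23, 3.53, 3.43, 4.25 and 3.93 CPM in EA rats, against 3.83, 3.86, 4.85, 5.61 and 4.42 CPM in control rats. All 5 EA rats lay below its control mean, with overlap, and the log2 fold change was -0.30 (SE 0.14, adjusted p = 0.391). Psme3ip1, a partner of PA28 gamma, averaged 21.2 FPKM and had 41.1, 38.3, 36.9, 37.0 and 35.2 CPM in EA rats, against 36.3, 37.4, 40.6, 36.5 and 37.9 CPM in control rats. Its groups had the same mean of 37.7 CPM and a log2 fold change of 0.0 (SE 0.05, adjusted p = 0.996).

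Genes around the proteasome were taken from a list of 43 symbols, of which 39 were tested. Sem1 and Ufd1 were tested under their current symbols, so their older symbols Shfm1 and Ufd1l added nothing, and Paaf1 and Nlrc5 were not among the genes tested. edgeR called 0 of the 39, where 0.0198% of all genes were called, and at an unadjusted p under 0.05 it placed 5 higher in EA and 2 lower, where 6.59% of all genes were higher and 7.15% lower (13.7% in either direction). Their median log2 fold change was 0.03, against 0.0 over all genes.

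The 3 with the lowest p bind or carry the assembled proteasome. Txnl1, a thioredoxin bound to the cap, had 51.6, 52.8, 50.3, 50.0 and 55.0 CPM in EA rats, against 44.2, 48.4, 49.5, 45.8 and 42.0 CPM in control rats. Akirin2, which carries proteasomes into the nucleus, had 52.7, 50.2, 49.5, 49.6 and 57.9 CPM in EA rats, against 49.3, 47.2, 44.3, 45.0 and 45.2 CPM in control rats. Zfand2a, a stress-inducible cap binder, had 39.1, 38.9, 38.9, 39.1 and 39.4 CPM in EA rats, against 34.6, 33.6, 35.6, 33.4 and 38.8 CPM in control rats. In all 3 every EA rat lay above every control rat, each by a narrow margin over the highest control. Over all genes tested, 1.42% had every EA rat above every control rat. In FPKM the groups overlapped for all 3. EA 3 had 35.0 FPKM of Txnl1 against up to 36.1 FPKM in control rats, 30.5 FPKM of Akirin2 against up to 31.2 FPKM, and 10.9 FPKM of Zfand2a against up to 11.3 FPKM. The log2 fold changes were 0.18 (SE 0.05, adjusted p = 0.222) for Txnl1, 0.17 (SE 0.05, adjusted p = 0.233) for Akirin2 and 0.15 (SE 0.05, adjusted p = 0.237) for Zfand2a. Pithd1 had 0.13 (SE 0.05, adjusted p = 0.246), also below the unadjusted threshold.

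The ubiquitin shuttle receptor Rad23b had 200, 206, 175, 174 and 201 CPM in EA rats, against 170, 177, 172, 181 and 173 CPM in control rats. In Rad23b 4 of 5 EA rats lay above the control mean, with overlap, and the log2 fold change was 0.13 (SE 0.05, adjusted p = 0.32). The cap deubiquitinase Usp14 had a log2 fold change of 0.11 and the assembly factor Ecpas of 0.10, neither under the unadjusted threshold.

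Of the genes for peptide loading, Tap1 had 3.32, 5.72, 3.96, 4.48 and 3.78 CPM in EA rats, against 5.83, 4.62, 4.76, 7.18 and 5.37 CPM in control rats. EA 2 alone lay above the control mean, and the log2 fold change was -0.38 (SE 0.17, adjusted p = 0.355), while its neighbour Psmb9, 189 bases away, had 0.30. Tap2 had a log2 fold change of 0.23, the interferon factor Irf1 had -0.11, and the class I light chain B2m had 0.02. Nfe2l1 and Nfe2l2, transcription factors of proteasome genes, had -0.01 and 0.11.

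Motifs, 6 in all, were searched on both strands in the RefSeq promoters, which were matched by symbol for 43 of the 49 genes (all but Psma3l, Psma7, Psmb11, Psmd6, Psmd12 and Psmd14). The interferon element core (GAAA, any 2 bases, GAAA) was in 7 of 43, or 16.3%, against 3.92% of 33469 promoters and 2.78% of the 11535 promoters of genes tested. Its holders had log2 fold changes of -0.32 (Psmg4), -0.23 (Psmb10), -0.17 (Psmb8), -0.07 (Psmb3), -0.01 (Psma4), 0.06 (Psmd7) and 0.07 (Psme2). The ETS core CCGGAAG was in 16 of 43, or 37.2%, against 8.75% of all promoters and 15.8% of those of genes tested, and was held by 7 of 14 cap genes and 3 of 12 core genes. The GC box GGGCGG was in 69.8% of the 43, against 33.1% of all promoters and 60.8% of those of genes tested, and the CCAAT box in 51.2%, against 37.5% and 36.6%.

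The antioxidant response element core TGACNNNGC was in 7 of 43, or 16.3%, against 12.1% of all promoters and 14.5% of those of genes tested. The heat shock element core TTCNNGAA was in 3 of 43, or 6.98%, against 8.77% and 6.74%. Each motif was counted apart from the others, overlaps included, and a match describes the letters of the window only. Median GC content of the windows was 56.0% for proteasome genes, 51.7% for all promoters and 61.0% for those of genes tested.

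Cell type markers were read beside these values. Summed FPKM of 7 neuronal markers was 1520 to 2110 in EA libraries and 1750 to 1900 in control libraries, and of 7 microglial markers 138 to 176 in EA and 157 to 177 in control, so cortex markers were present in every library. The 6 oligodendrocyte markers summed to 856 to 1110 FPKM in EA and 972 to 1410 FPKM in control, with 3 of 6 lower at an unadjusted p under 0.05, where 7.15% of all genes were lower and 6.59% higher. The endothelial markers summed to 119 to 154 FPKM in EA and 156 to 168 FPKM in control, without overlap, with 2 of the 5 tested lower and Cldn5 averaging 0.154 FPKM. Astrocyte markers (1120 to 1510 FPKM in EA, 1180 to 1460 in control) and those of choroid plexus and meninges (11.3 to 23.1 in EA, 12.4 to 23.7 in control) overlapped, and blood cell markers summed to 6.30 to 15.9 FPKM in EA and 7.68 to 43.0 FPKM in control. At the same threshold 2 of the 3 blood cell markers tested and 1 of 6 astrocyte markers were lower, 1 of 7 neuronal markers was higher, and 0 microglial and 0 choroid plexus and meningeal markers passed. The part of these cell types in the lower Psmb10 and Psmg4 values was not tested. Rn7sl1, a structural RNA of the signal recognition particle, had 188 FPKM in EA 2 and 298 FPKM in EA 5, against 4.70 to 11.9 FPKM in the other EA libraries and 4.70 to 12 FPKM in control libraries. Without EA 2 and EA 5, 0 of 49 proteasome genes were called, and 1 higher and 1 lower had an unadjusted p under 0.05, against 8.72% of all genes.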

How the data were processed

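Adapters were removed by the authors with Cutadapt, alignment to Rnor_6.0 was done with HISAT2, and transcripts were assembled with StringTie. Versions in the submitters' processing notes are Bowtie 0.12.2, StringTie 1.3.0 and HISAT2 2.0. The paper's methods list a later StringTie release and do not name Bowtie. For the deposited FPKM the authors ran ballgown on that assembly, and the smallest listed value was read as 0. The deposited estimated counts were whole numbers and were used as they stood. In every library they sum to more than the valid reads that the study lists, so they are estimates and not a tally of reads, and the depths and CPM given here are on that scale. How the authors drew these expected counts from the assembly is not given in the sources used here.

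Genes with at least 0.5 FPKM in at least 5 of 10 libraries (15169, with 99.9% of counts) were fitted with edgeR 4.0.16 (TMM, quasi-likelihood F test) in R 4.3.3, without covariates, and adjusted by Benjamini-Hochberg over all of them. Following the study, calls needed a fold change over 1.2 and an adjusted p below 0.05. An SE is the log2 fold change divided by the root of F. The 3 ratios were compared by exact permutation. DESeq2 1.42.0, limma 3.58.1 on log2(FPKM + 0.1) and log2(FPKM + 1), other scalings and filters, summed rows, a replicate block and libraries left out were alternatives. Figures used matplotlib 3.10.9 in Python 3.11.15. The fit was tested on simulated data.

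Genes named with a value in every library were the immunosubunits and their partners, those under an unadjusted p of 0.05, those without overlap and the highest and lowest of each class in FPKM. Other genes of the pathway were named up to the 10 lowest p, apart from some that are not reported here, and Psmb9's neighbours and regulators beyond these after their values were seen. Members and lists were chosen with earlier results of these data known. Psma3l, Psmc3ip and Psme3ip1 were given a class after the table was opened. The sources describe rats per group, but no label says outright that each library is a separate rat, and p-values then measure the spread between these samples. FPKM was used for levels between genes, and TMM-scaled CPM for comparisons of single genes and class levels between libraries. Summed levels, marker sums, Rn7sl1, the annotated copies, the ratios and the limma fits used FPKM, without TMM scaling.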

Additional observations from a re-analysis of the deposited data

Results flagged for a closer look

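Of 104 groups of 5 values examined among the named genes and ratios, 6 held a library far from the other 4, where chance alone sets such a library apart in about 1 in 20 groups. Psmd11 was lowest in EA 4 at 51.2 CPM, with the other EA libraries at 71.8 to 76.8 CPM, and lowest in control 5 at 49.5 CPM, with the other control libraries at 67.2 to 73.7 CPM. Psmb2 was lowest in EA 3 at 30.1 CPM, with the other EA libraries at 35.7 to 37.7 CPM. Psmd2 was highest in EA 2 at 189 CPM, with the others at 169 to 174 CPM. Psme4 was highest in control 1 at 105 CPM, with the other controls at 86.8 to 91.8 CPM. The ratio of Psmb8 to Psmb5 was highest in control 5 at 2.28%, with the other controls at 1.24% to 1.47%. No cause of these values was tested.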

How the results depend on the processing

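Over 51 results and 20 alternatives for genes, 961 values counted as the same, 13 as moved, 23 as reversed and 1 as stronger. A small change of sign in a class median could count as the same, as for the 19S cap (0.01, and -0.01 with limma). Under every alternative 0 proteasome genes were called. At an unadjusted p under 0.05 the main fit had 6 proteasome genes higher and 2 lower, where 13.7% of all genes passed in either direction. With limma 2 were higher and 4 lower, against 13.2% of all genes at a pseudocount of 0.1 and 13.4% at 1. Without EA 2 and EA 5 it was 1 and 1, against 8.72%. With 1 library left out, 3 to 8 were higher and 2 to 6 lower, against 10.2% to 16.9% of all genes. The fewest higher (3) came without EA 2 (13.4% of all genes) or control 4 (11.4%). The most higher (8) came without EA 3 (15.3%), and the most lower (6) without control 1 (16.9%). Of the 39 pathway genes tested, the 7 at that threshold became 5 to 11 when 1 library was left out. The 11 came without control 1, where 16.9% of all genes passed, against 13.7% in the main fit. The median of activators and inhibitors was 0.03 and 0.02 with limma at pseudocounts of 0.1 and 1, and 0.02 to 0.06 when 1 library was left out. With 1 library left out, the median ran from -0.23 to -0.01 for immunosubunits, from 0.01 to 0.05 for the 20S core, from -0.02 to 0.03 for the 19S cap and from -0.08 to -0.02 for assembly chaperones. The log2 ratio of Psmb8 to Psmb5 ran from -0.21 to 0.08 when 1 library was left out, above 0 without EA 3 (0.01) or control 5 (0.08), and that of Psmb9 to Psmb6 from 0.19 to 0.37, past the threshold without control 2. Some log2 fold changes changed sign, among them that of Psmb11 (0.17). Psme3ip1 was 0.00 with RLE scaling, the stricter filter, DESeq2 or summed rows, and 0.03 without EA 2 and EA 5, where Psmg2 was 0.03. With 1 library left out, Psme3ip1 ran from -0.03 to 0.03, Psma4 from -0.04 to 0.03, Psma7 from -0.04 to 0.01, Psme1 from -0.05 to 0.04, Psmg2 from -0.14 to 0.04 and Psmb11 from -0.07 to 0.41. The cause of these shifts was not tested.

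With the replicate number as a block, 5 of 49 proteasome genes were higher and 2 lower at an unadjusted p under 0.05. In that fit 13.7% of all genes passed in either direction, and 0 proteasome genes were called. Over all genes tested, deviations of same-numbered libraries correlated at -0.0026 to 0.0605 (5 pairs), and 1 of 5 libraries was closest to its own number. Correlations over all genes cannot tell whether the numbers pair the rats in some genes only.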

Other observations

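Rows around the proteasome list held values that varied between libraries of both groups. Ddi2, a protease and shuttle receptor that activates Nfe2l1, had 162, 151, 51.0, 77.7 and 59.8 CPM in EA rats, against 153, 155, 67.9, 56.3 and 77.9 CPM in control rats, so that libraries 1 and 2 of each group stood high. LOC100911238, annotated as a copy of the assembly factor Pomp, had 15.3, 41.6, 0.484, 42.7 and 35.4 FPKM in EA rats, against 38.1, 19.8, 34.2, 18.7 and 31.9 FPKM in control rats. Pomp itself had 48.5, 35.3, 57.5, 37.4 and 35.9 CPM in EA rats, against 33.6, 53.3, 32.5, 43.8 and 41.7 CPM in control rats, with its 4 highest values in the 4 libraries where the copy was lowest. How reads were divided between the copies was not tested, and Pomp is uncertain for that reason.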
